A study of Mus musculus with 6 samples.

Results

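Transforming growth factor beta (TGF-β) is secreted in a latent form, is released from the matrix, and signals through paired type I and type II receptor kinases to SMAD proteins. The 10 genes described here were taken by symbol from the 22623 genes counted in every library: the ligands Tgfb1, Tgfb2 and Tgfb3, the activin A subunit gene Inhba, the latent binding protein gene Ltbp1, the NADPH oxidase gene Nox4, the receptor genes Tgfbr1, Tgfbr2 and Tgfbr3, and the inhibitory SMAD gene Smad7. In tumors the pathway is known for acting on several cell types at once. It restrains lymphocytes, drives fibroblasts toward matrix production and acts on the vessel wall, and both tumor cells and macrophages can supply the ligand. Inhba encodes a ligand of the same superfamily, Ltbp1 tethers latent TGF-β to the matrix, Nox4 makes reactive oxygen and is itself known to respond to TGF-β, and Smad7 is induced by the pathway and switches it off.

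Nuclear RNA was counted nucleus by nucleus in 6 libraries of subcutaneous tumors grown from TC1 cells, a mouse lung tumor line, which the labels list under lung as tissue. All hosts were MCT2loxP/loxP mice carrying the mCre transgene on a C57BL/6 background, in which tamoxifen deletes Slc16a7, the gene of the lactate and pyruvate transporter MCT2. Host mice 8 weeks of age received tamoxifen on 5 days (KO, 3 libraries) or vehicle (CO, 3 libraries), then TC1 cells, and tumors were taken after 24 days. The implanted TC1 cells themselves were not deleted, the promoter driving Cre is not given in the sources used here, and tamoxifen treatment cannot be told apart from loss of MCT2. The study's methods treat the 3 libraries of a group as biological replicates, and p-values of KO against CO measure the spread between them. Comparisons of classes of nuclei take library as a block. Their p-values measure the spread of differences within libraries, except where stated below.

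The libraries held 13252572 to 22057084 unique molecular identifiers (UMIs, the counted molecules), and 17514 nuclei were kept (7660 CO, 9854 KO). The median nucleus held 1094 UMIs in KO 3 and 4873.5 in KO 2, the shallowest and the deepest library. Slc16a7 was not lower in the KO libraries: over all nuclei it stood at 8.58, 11.6 and 21.0 CPM (UMIs of the gene per 1000000 UMIs of the same nuclei) in CO 1 to 3 and at 15.6, 6.92 and 31.5 CPM in KO 1 to 3, and in macrophage-like nuclei, which held most of its UMIs, at 96.0, 93.7 and 167.2 CPM against 119.8, 148.1 and 154.1 CPM. Whether the counted 3′ tags lie inside the deleted part is not stated, so that these counts do not check the deletion. A total of 61 barcodes occurred in more than 1 library and 16 in all 6. All 66 nuclei of the adipocyte-like cluster and 21 of 185 endothelial-like nuclei carried barcodes shared by other libraries. The endothelial-like levels of Nox4 are therefore also given without such barcodes, while those of the other genes are given with them only.

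Nuclei were grouped by clustering without the 10 members and named from marker genes. The tumor-like class held 6887 nuclei, the macrophage-like 6057, the T/NK-like 789, the endothelial-like 185 and the host fibroblast-like 109, while 3 large clusters stayed unnamed. The largest unnamed cluster (2164 nuclei) expressed 9 of the 11 tumor markers but had the fibroblast marker Dkk2 among its leading genes. All 12 macrophage, 12 T/NK and 12 endothelial markers had UMIs in their own class. Single nuclei named by their own marker counts agreed less. Of macrophage-like nuclei 3820 were macrophage and 701 tumor by this rule. Of T/NK-like nuclei 370 were T/NK and 174 tumor, and of endothelial-like nuclei 40 were endothelial and 78 tumor. Of fibroblast-like nuclei 14 were host fibroblast and 51 tumor. The others were unassigned or fell in further classes. The host fibroblast label was the least secure, since its nuclei expressed 8 of 11 tumor markers beside 8 of 10 fibroblast markers, and the summed fibroblast markers of tumor-like nuclei reached 33.0% to 109.6% of their level in the fibroblast-like class. None of these lists separates implanted TC1 cells from host stroma by genotype. In CO 1 to 3 and KO 1 to 3 the fibroblast-like class held 2, 8, 27, 6, 32 and 34 nuclei, and the endothelial-like class 12, 22, 29, 22, 27 and 73.

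UMIs of the tumor markers were counted in every other named class. The 11 tumor markers, summed, reached 4.99% to 16.1% of their tumor-like level in the macrophage-like nuclei of the 6 libraries, 42.3% to 78.1% in T/NK-like, 52.5% to 77.8% in endothelial-like and 2.47% to 79.9% in fibroblast-like nuclei. Counts were concentrated in a minority of deep nuclei. Of T/NK-like nuclei 19.8% had more than 3000 UMIs and held 70.4% of the UMIs of the class, and of endothelial-like nuclei 36.8% held 85.7%. Among nuclei with at most 3000 UMIs the tumor markers stood at 4.88% to 21.0% of the tumor-like level in T/NK-like and 19.7% to 41.6% in endothelial-like nuclei. Class comparisons are given for both sets. The limit of 3000 UMIs was set on the other classes only, and tumor-like nuclei of all depths were kept. Comparisons with at most 3000 UMIs are therefore not matched for depth to the tumor-like class. The source of these tumor marker counts and their part in a level were not tested.

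Levels are CPM of the UMIs summed per class and library, as mean ± SD over the 6 libraries, and compare one gene between classes, never one gene with another. Differences between classes were tested with the edgeR quasi-likelihood F-test with library as a block, and a gene was called at a log2 fold change of at least 0.58 in size and a Benjamini-Hochberg adjusted p of at most 0.05. Against tumor-like nuclei, 23.9% of 11562 genes tested were called higher and 27.4% lower in macrophage-like nuclei. The corresponding shares were 10.4% and 5.35% in T/NK-like nuclei and 7.44% and 4.15% in endothelial-like nuclei. Of the 10 members, the macrophage-like class had 4 called higher and 6 lower, of which the call of Tgfb2 was the one that turned sign with another naming of nuclei. The T/NK-like class had 4 higher, 4 lower and 2 uncalled, and the endothelial-like class had 3 higher, 2 lower and 5 uncalled. In the endothelial-like comparison SE and p-values take the spread from all genes together. They can therefore be smaller than the spread of a single gene over the libraries would give. The host fibroblast-like class had 10 nuclei in only 3 libraries and was not tested.

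Among the ligands, Tgfb1, the main form made by immune cells, was highest in macrophage-like nuclei. Its level there was 311, 338 and 277 CPM in CO 1 to 3 and 329, 183 and 202 CPM in KO 1 to 3. In tumor-like nuclei it was 55.5, 57.4 and 43.6 CPM in CO and 41.3, 25.3 and 42.7 CPM in KO, so that every macrophage-like value lay above every tumor-like one. Means were 273 ± 66.4 CPM in macrophage-like, 109 ± 40.5 in T/NK-like, 74.8 ± 46.3 in endothelial-like, 44.3 ± 11.6 in tumor-like and 31.8 ± 26.2 in fibroblast-like nuclei (n = 6). The fibroblast-like mean includes CO 1 and KO 1, where 2 and 6 nuclei held no Tgfb1 UMI. In the 3 libraries with at least 20 such nuclei the level was 49.7 to 57.8 CPM, so that fibroblast-like nuclei are not ranked below tumor-like ones. Tgfb1 was higher than in tumor-like nuclei by a log2 fold change of 2.65 ± 0.10 (SE) in macrophage-like, 1.20 ± 0.16 in T/NK-like and 1.02 ± 0.24 in endothelial-like nuclei, all called. In nuclei with at most 3000 UMIs the T/NK-like difference was 1.74 ± 0.22 and stayed called, while the endothelial-like difference was 0.19 ± 0.53 and was not.

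Tgfb2 and Tgfb3 were counted too rarely to rank most classes. Tgfb2 stood at 6.09 ± 1.80 CPM in tumor-like and 2.22 ± 1.93 CPM in macrophage-like nuclei, where it had no UMI in CO 3 and KO 2. Its macrophage-like difference of -1.02 ± 0.42 (edgeR adjusted p = 0.044) lost its call in 5 of 6 fits that left out a library, with log2 fold changes from -1.22 to -0.69, and was -0.83 among nuclei with at most 3000 UMIs, again not called. With nuclei named by marker counts it turned to 1.11. In fibroblast-like nuclei Tgfb2 was listed at 0, 0 and 28.9 CPM in CO and 92.1, 404.1 and 79.5 CPM in KO. Single nuclei made up most of these counts, since 59 of the 65 UMIs of KO 2 and 10 of the 11 UMIs of KO 3 came from 1 nucleus each. Tgfb3, whose gene overlaps Ttll5 on the opposite strand, stood at 11.5 ± 2.19 CPM in tumor-like and 3.28 ± 1.78 CPM in macrophage-like nuclei, a called difference of -1.63 ± 0.27. It was not called in T/NK-like (-0.19 ± 0.42) or endothelial-like nuclei (-1.82 ± 0.77).

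Inhba, the subunit that pairs with itself to form activin A, was highest in tumor-like nuclei. It stood there at 427, 480 and 298 CPM in CO and 205, 248 and 306 CPM in KO, against 61.9, 108 and 71.3 CPM and 63.2, 115 and 132 CPM in macrophage-like nuclei. Every tumor-like library lay above every macrophage-like one, and the difference was -1.80 ± 0.20. T/NK-like nuclei held 209 ± 85.8 CPM (-0.67 ± 0.12, and -1.37 ± 0.21 with at most 3000 UMIs) and endothelial-like nuclei 180 ± 91.2 CPM (-0.80 ± 0.17, and -2.22 ± 0.41), all called lower than tumor-like. Inhba differed among the 6 tumor-like clusters. It was 778 CPM (295 to 1080 over 5 libraries with at least 20 nuclei) in the cluster led by Atf3, Jun, Fos and Egr1, genes known as rapid stress responders, and 210 to 446 CPM in the other 5.

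Ltbp1, the carrier that binds latent TGF-β, followed the tumor-like nuclei. It was 418, 418 and 716 CPM in CO and 676, 988 and 792 CPM in KO in the tumor-like class, and 37.9, 48.6 and 93.5 CPM and 72.5, 233 and 195 CPM in the macrophage-like class (-2.74 ± 0.20, called). T/NK-like nuclei held 447 ± 178 CPM, a called difference of -0.61 ± 0.13, and endothelial-like nuclei held 531 ± 166 CPM, a difference of -0.42 ± 0.15 that was not called (edgeR adjusted p = 0.053). The T/NK-like call was lost without KO 1 (-0.49) or without KO 2 (-0.51). In nuclei with at most 3000 UMIs, where the tumor markers stood lower, Ltbp1 was lower than in tumor-like nuclei by -3.01 ± 0.24 in T/NK-like and -3.15 ± 0.38 in endothelial-like nuclei, both called.

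Nox4, which encodes an oxidase that makes hydrogen peroxide, had higher means in endothelial-like and fibroblast-like nuclei than in the other named classes, and these 2 could not be ordered. The endothelial-like mean of 386 CPM was 176 CPM without CO 1, and the fibroblast-like mean of 236 CPM was then 284 CPM. The endothelial-like level was the higher one in 2 of 6 libraries (two-sided exact permutation p = 0.969). Its endothelial-like levels were 1438, 118 and 199 CPM in CO and 183, 69.9 and 308 CPM in KO, each above the 17.6 to 54.3 CPM of the tumor-like libraries, and the difference was 3.00 ± 0.20. The libraries spread more widely than this SE, with endothelial-like levels from 179% to 6871% of the tumor-like level of the same library. The CO 1 value rested on 12 nuclei, of which 1 gave 24 of the 30 UMIs. Without CO 1 and in the other fits that left out a library the difference stayed between 2.56 and 3.36, and among nuclei with at most 3000 UMIs it was 3.08 ± 0.34. Without the shared barcodes the endothelial-like levels were 1597, 121 and 195 CPM in CO and 188, 64.0 and 311 CPM in KO. In fibroblast-like nuclei Nox4 was 0, 94.2 and 324 CPM in CO and 276, 131 and 593 CPM in KO. Pericyte markers, summed, reached 80.1 to 287.6 CPM in endothelial-like nuclei and 15.8 to 21.3 CPM in tumor-like nuclei, and their part in the Nox4 level was not tested. Macrophage-like nuclei held 6.13 ± 7.35 CPM (-2.40 ± 0.42, called). T/NK-like nuclei held 21.9 ± 17.3 CPM (-0.63 ± 0.23, edgeR adjusted p = 0.049), a call lost in 5 of 6 fits that left out a library, while the difference among nuclei with at most 3000 UMIs was -3.46 ± 0.70 and called.

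**Figure D1:**
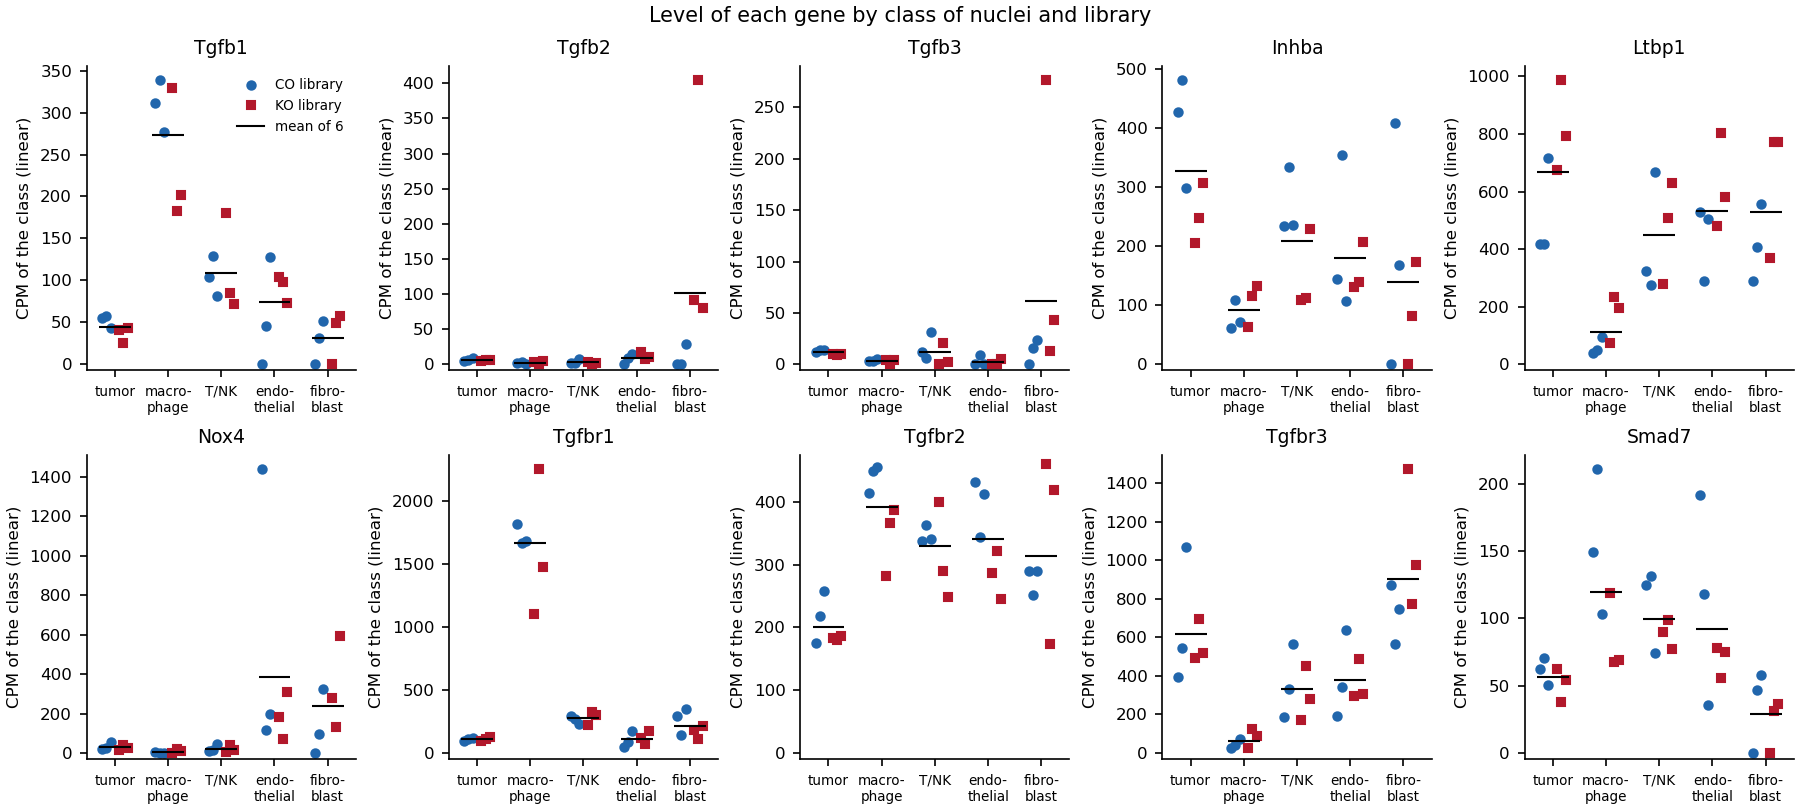
Level of each member, in CPM on a linear axis, in the 5 named classes, with 1 panel per gene. Blue circles are the 3 CO libraries, red squares the 3 KO libraries and the black line their mean, and Tgfbr1 and Tgfb1 stand highest in macrophage-like nuclei while Nox4 stands highest in endothelial-like and fibroblast-like nuclei, with the CO 1 endothelial point of 1438 CPM resting on 12 nuclei.

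The receptors were divided between classes. Tgfbr1, the type I receptor kinase, stood in the macrophage-like class at 1819, 1668 and 1687 CPM in CO 1 to 3 and at 1108, 2259 and 1480 CPM in KO 1 to 3, and at 94.8, 107 and 116 CPM and 93.7, 108 and 125 CPM in tumor-like nuclei. The lowest macrophage-like library thus lay far above the highest tumor-like one, and the log2 fold change was 3.96 ± 0.15. T/NK-like nuclei held 291, 272 and 234 CPM in CO and 223, 325 and 303 CPM in KO, all above the tumor-like values (1.30 ± 0.10, called, and 1.51 ± 0.18 with at most 3000 UMIs). Fibroblast-like nuclei held 215 ± 89.6 CPM and endothelial-like nuclei 114 ± 54.2 CPM, the latter not called against tumor-like nuclei (0.20 ± 0.19, and -0.60 ± 0.44 with at most 3000 UMIs).

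Tgfbr2, the type II receptor kinase that binds ligand first, was spread more evenly. In the macrophage-like class it stood at 414, 449 and 455 CPM in CO and 282, 366 and 387 CPM in KO (0.99 ± 0.10 above tumor-like), at 330 ± 54.0 CPM in T/NK-like (0.68 ± 0.11), 340 ± 71.8 CPM in endothelial-like (0.65 ± 0.16), 314 ± 107 CPM in fibroblast-like and 200 ± 32.0 CPM in tumor-like nuclei. All 3 tested differences were called, but the endothelial-like one was 0.56 ± 0.30 and not called among nuclei with at most 3000 UMIs, and was 0.55 ± 0.16 and uncalled with no count filter.

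Tgfbr3, or betaglycan, a co-receptor that presents ligand, was lowest in macrophage-like nuclei. It was 395, 547 and 1069 CPM in CO and 495, 696 and 518 CPM in KO in tumor-like nuclei and 27.7, 39.3 and 73.8 CPM and 25.3, 126 and 86.8 CPM in macrophage-like nuclei, a called difference of -3.40 ± 0.24. T/NK-like nuclei held 332 ± 154 CPM (-0.98 ± 0.11) and endothelial-like nuclei 378 ± 161 CPM (-0.71 ± 0.16), both called. With at most 3000 UMIs these were -3.85 ± 0.26 and -1.54 ± 0.31, beside -3.59 ± 0.26 in macrophage-like nuclei of that depth. Fibroblast-like nuclei held 901 ± 313 CPM, higher than tumor-like nuclei in 5 of 6 libraries. Within the tumor-like class Tgfbr3 was 1182 CPM (865 to 1769 over 6 libraries) in the cluster led by Gpm6b, against 116 to 543 CPM in the other 5 clusters. Nox4 was also highest in that cluster among the tumor-like ones, at 52.6 CPM against 3.86 to 25.1 CPM.

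Smad7, the feedback inhibitor, was higher in macrophage-like than in tumor-like nuclei, at 150, 211 and 103 CPM in CO and 119, 67.9 and 68.9 CPM in KO against 56.4 ± 11.4 CPM (1.04 ± 0.13, called). T/NK-like nuclei held 99.4 ± 24.1 CPM (0.74 ± 0.13, called, and 1.05 ± 0.22 with at most 3000 UMIs) and endothelial-like nuclei 92.5 ± 55.8 CPM (0.45 ± 0.24, not called). Within the tumor-like class it was 183 CPM in the Atf3-led cluster that also held the most Inhba, and 45.9 to 61.6 CPM in the others.

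In the order of class means, 40 pairs of neighbors were compared over the 6 libraries with a two-sided exact permutation test. The smallest p that 6 libraries allow is 0.0312, and after adjustment over the 40 pairs the smallest was 0.1135, so that no single step in any order passed. The steps that held in 6 of 6 libraries were macrophage-like above T/NK-like for Tgfb1 and Tgfbr1, tumor-like above T/NK-like for Inhba and Tgfb2, tumor-like above macrophage-like for Tgfb3, fibroblast-like above endothelial-like for Tgfbr1, T/NK-like above macrophage-like for Tgfbr3, Ltbp1 and Nox4, and tumor-like above endothelial-like above T/NK-like for Tgfbr3. The fibroblast-like step of Tgfbr1 rested on few counts. In CO 1 it set 1 UMI in 2 fibroblast-like nuclei against 1 UMI in 12 endothelial-like nuclei, and KO 1 had 2 UMIs in 6 fibroblast-like nuclei. By medians, the steps of Tgfbr3, Ltbp1 and Nox4 between T/NK-like and macrophage-like nuclei were smaller or reversed once deeper nuclei were left out. That also lowered the tumor marker level of T/NK-like nuclei, and the cause was not tested. With all nuclei the T/NK-like and macrophage-like medians of Tgfbr3 were 53.4% and 7.1% of its tumor-like level. Those of Ltbp1 were 71.7% and 12.3%, and those of Nox4 58.7% and 8.88%. Among nuclei with at most 3000 UMIs, Tgfbr3 stood at a median of 6.67% of its tumor-like level in T/NK-like and 5.68% in macrophage-like nuclei. Ltbp1 stood at 10.0% and 11.8%, and Nox4 at 0% and 5.24%. For Tgfbr2 the steps between neighbors among the 4 highest classes, from 392 to 314 CPM, held in 3 or 4 of 6 libraries. For Smad7 the step from macrophage-like to T/NK-like nuclei held in 4 libraries and the next, to endothelial-like nuclei, in 5. Classes that were not neighbors were not compared in this test. With 6 libraries and 40 pairs, a step that did not pass does not show equal levels.

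**Figure D2:**
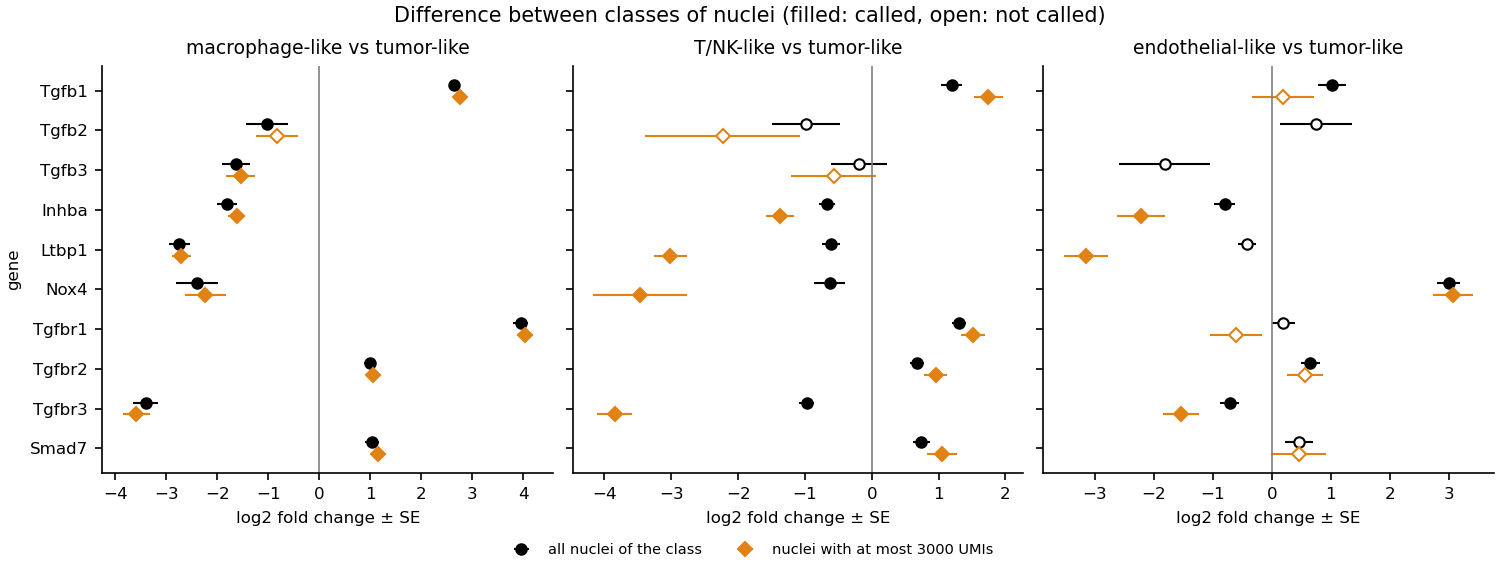
Log2 fold change of each member against tumor-like nuclei, with bars of 1 SE, in macrophage-like, T/NK-like and endothelial-like nuclei. Black circles use all nuclei of the class and orange diamonds those with at most 3000 UMIs, both against tumor-like nuclei of all depths. Filled symbols are called. Ltbp1, Tgfbr3 and Nox4 in T/NK-like nuclei move from -0.61, -0.98 and -0.63 to -3.01, -3.85 and -3.46. Tgfb2 was not tested and Tgfb3 is not drawn in the shallow endothelial-like nuclei.

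Seen by source, macrophage-like nuclei gave 9.49% of all UMIs but 57.1% of those of Tgfbr1, 38.2% of Tgfb1, 17.9% of Smad7 and 16.5% of Tgfbr2. They gave under their share of the others, with 2.97% of Inhba, 1.67% of Ltbp1 (1.04% without KO 3) and 1.13% of Tgfbr3. Tumor-like nuclei gave 58.9% of all UMIs and 73.0% of Tgfbr3, 68.2% of Tgfb3, 64.4% of Inhba and 64.3% of Ltbp1. The unnamed clusters gave 26.1% of all UMIs and 21.3%, 21.4%, 29.0% and 29.7% of these genes in the same order. By marker counts 2908 of their nuclei were tumor and 215 unassigned. Endothelial-like nuclei, with 1.18% of UMIs, gave 10.2% of Nox4 (library median 7.25%, from 1.86% to 29.6%, and 5.59% without KO 3). Fibroblast-like nuclei, with 0.690%, gave 7.45% of Nox4 (median 2.91%, from 0% to 19.1%, and 4.71% without KO 3). Their 17.2% of Tgfb2 rested on KO 2 and fell to 5.23% without it (median 4.59%, from 0% to 43.1%). In whole tumors such shares move both with the number of nuclei of a class and with the RNA per nucleus.

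Depth differed between classes, with a median of 4383 UMIs per tumor-like and 1063 per macrophage-like nucleus, so shares of nuclei with at least 1 UMI were taken after thinning to 1000 UMIs, which left out 709 tumor-like and 2692 macrophage-like nuclei. Tgfbr1 was then seen in 68.6% of macrophage-like, 24.5% of T/NK-like and 9.63% of tumor-like nuclei, where the unthinned shares were 64.6%, 30.7% and 39.0%. Tgfb1 was seen in 23.5%, 14.1% and 4.87% (unthinned 26.0%, 23.1% and 21.7%). Tgfbr3 was seen in 62.4% of fibroblast-like, 41.5% of tumor-like and 4.10% of macrophage-like nuclei (unthinned 69.7%, 74.4% and 5.55%). Nox4 was seen in 29.4% of fibroblast-like, 17.7% of endothelial-like and 2.62% of tumor-like nuclei (unthinned 44.0%, 27.6% and 11.8%), and in 0 of 454 T/NK-like nuclei. At 1000 UMIs a count of 0 allows up to 0.661% of T/NK-like nuclei to have a Nox4 UMI, a limit on nuclei with a UMI at that depth and not on nuclei expressing the gene, and at full depth 3.93% had one.

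All 3 macrophage-like clusters expressed Tgfbr1 and Tgfb1. Tgfbr1 was 1749 CPM (1277 to 2535 over libraries) in the largest cluster, led by Ms4a7 and Mrc1, 1235 CPM (890 to 1654) in the one led by the antigen presentation gene H2-Ab1, and 1073 CPM (734 to 1796) in the one led by Slfn1 and other interferon-induced genes. Tgfb1 stood at 291, 246 and 286 CPM and Tgfbr2 at 429, 306 and 283 CPM in the same clusters.

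**Figure D3:**
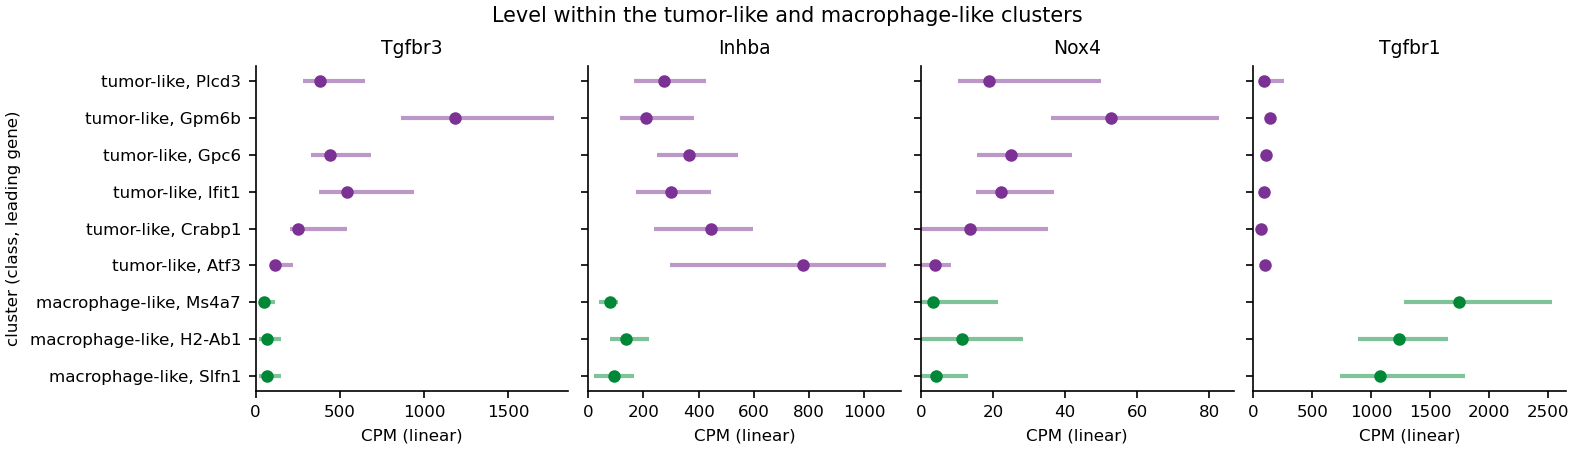
Levels of Tgfbr3, Inhba, Nox4 and Tgfbr1 in the 6 tumor-like and 3 macrophage-like clusters, named by their leading gene. Dots are CPM pooled over libraries and bars the range over libraries with at least 20 nuclei of the cluster; Tgfbr3 reaches 1182 CPM in the Gpm6b-led cluster and Inhba 778 CPM in the Atf3-led cluster, and all 3 macrophage-like clusters exceed 1000 CPM of Tgfbr1.

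Over the 30 sums of class and library, the genes most like each member by Pearson correlation of log2(CPM + 1) among 10195 genes are given as a description. The points share libraries and depth. Tgfb1 lay closest to Dapp1, Ppp1r9b and Ifngr1 (r = 0.97 each), Tgfbr1 to Pid1, Slc8a1 and Slc13a3 (0.90 to 0.93), Tgfbr3 to Cacna2d1, Bnc2 and Glis3 (0.95 to 0.97), Ltbp1 to Sgcd, Ghr and Nedd4 (0.95), Inhba to Triobp, Ltbp4 and Zc3h14 (0.97), and Nox4 to Arhgap29, Synpo and Dpysl3 (0.90 to 0.91). The sparsely counted Tgfb2 and Tgfb3, and also Tgfbr2, had no neighbor above 0.80. The genes closest to Tgfb2 were Boc, Plscr2 and Socs2, to Tgfb3 Pi16, Syt17 and Dpyd, and to Tgfbr2 Rap1a, Smim20 and Lrmda.

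The promoters of the kinase receptors and of Tgfb1, the members that were higher together in macrophage-like nuclei, are shown as upstream windows from RefSeq (build GRCm38.p6), 5′ to 3′ on the strand of the gene, with the SMAD box CAGAC or its reverse complement GTCTG in capitals. Smad7, also higher there, is not shown. Tgfb1 lies on chr7:25687002-25705077 (plus strand), Tgfbr1 on chr4:47353222-47414931 (plus) and Tgfbr2 on chr9:116084293-116175360 (minus), and each window ends just before the start site that RefSeq lists first. A further Tgfbr1 window, at chr4:47385966-47386215, is not shown.
Tgfb1, chr7:25686752-25687001, plus strand: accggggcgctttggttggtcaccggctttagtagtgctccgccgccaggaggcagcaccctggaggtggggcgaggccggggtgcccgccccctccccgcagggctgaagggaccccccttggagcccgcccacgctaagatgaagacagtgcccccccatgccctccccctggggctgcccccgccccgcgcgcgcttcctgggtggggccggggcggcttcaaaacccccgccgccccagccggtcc
Tgfbr1, chr4:47352972-47353221, plus strand: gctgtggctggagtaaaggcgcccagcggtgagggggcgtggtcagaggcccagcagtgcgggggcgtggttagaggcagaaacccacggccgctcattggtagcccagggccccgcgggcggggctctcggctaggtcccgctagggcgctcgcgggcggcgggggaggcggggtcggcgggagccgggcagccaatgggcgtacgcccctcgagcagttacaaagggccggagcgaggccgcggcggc
Tgfbr2, chr9:116175364-116175613, minus strand: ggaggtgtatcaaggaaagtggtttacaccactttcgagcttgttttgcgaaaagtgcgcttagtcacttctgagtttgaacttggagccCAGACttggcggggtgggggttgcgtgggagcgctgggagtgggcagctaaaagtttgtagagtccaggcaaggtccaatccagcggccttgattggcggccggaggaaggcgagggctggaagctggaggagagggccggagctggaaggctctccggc
The box occurred on either strand in 1 of these 3 windows, in 6 of 9 such windows of 7 members with an entry, and in 42.2% of 32851 windows of all genes. GAGGAA or its reverse complement TTCCTC, the core bound by the macrophage factor PU.1, occurred in the Tgfbr2 window, in 4 of the 9 member windows and in 23.25% of all windows. The 2 motifs do not overlap in sequence, and a match is a description of these letters only.

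Beyond the members, 63 other genes of the pathway were taken from fixed lists. Of 53 tested in macrophage-like nuclei, 14 were called higher and 21 lower than in tumor-like nuclei, with a median log2 fold change of -0.24 beside -0.04 over all genes. Of all genes tested 23.9% were called higher and 27.4% lower. Among the latency and activation genes 4 of 14 were higher and 6 lower. Nrros, which anchors latent TGF-β on myeloid cells in place of the matrix carrier, was 682 ± 193 CPM in macrophage-like and 6.41 ± 4.89 CPM in tumor-like nuclei (6.88 ± 0.35). The carrier Ltbp2 (-3.02 ± 0.26) and the integrin subunit Itgb8, part of a TGF-β-releasing integrin (-3.12 ± 0.36), were lower. Among receptors 3 of 8 were higher, led by Acvrl1 (3.72 ± 0.20), an alternative type I receptor, and 2 were lower, led by the BMP receptor Bmpr1a (-3.11 ± 0.27). None of 3 activin-side genes was higher and 2 were lower, 4 of 12 signaling genes were higher and 0 lower, and of 16 genes known to respond to the pathway 3 were higher, led by the matrix protein gene Tgfbi (4.78 ± 0.19), and 11 lower.

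Of 52 pathway genes tested in the T/NK-like class, 6 were called higher and 8 lower, with a median of -0.32 beside -0.07 over all genes. Of all genes tested 10.4% were called higher and 5.35% lower. Nrros (4.50 ± 0.29), Id2, a transcriptional repressor active in lymphoid cells (3.36 ± 0.33), and the integrin subunit Itgb3 (2.42 ± 0.39) led the higher ones. The collagen gene Col1a1 (-1.23 ± 0.35), the activin B subunit Inhbb (-1.21 ± 0.34) and Snai1 (-1.02 ± 0.36), a repressor known in epithelial-mesenchymal transition, led the lower ones. In endothelial-like nuclei 11 of 53 were higher and 3 lower (7.44% and 4.15% of all genes), with a median of 0.04 beside -0.11. Eng, or endoglin, the endothelial co-receptor (5.81 ± 0.28), Acvrl1, its partner receptor (4.30 ± 0.46), and Nrros (3.79 ± 0.35) led the higher ones, and Itgb8 (-1.13 ± 0.32), Col3a1 (-0.89 ± 0.16) and Bmpr1a (-0.65 ± 0.17) were the lower ones. Macrophage markers, summed, reached 16.3% to 26.7% of their macrophage-like level in T/NK-like and 9.99% to 19.3% in endothelial-like nuclei, and their part in the Nrros values was not tested.

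Whether loss of MCT2 in the host changed the members was asked in 4 sets of nuclei by comparing KO with CO over 3 against 3 libraries. No gene was called by edgeR over all nuclei (0% of 13662 tested), in macrophage-like (0% of 9997), in tumor-like (0% of 12563) or in T/NK-like nuclei (0% of 7904). Unadjusted p was under 0.05 for 661, 586, 855 and 516 genes in the same order, and DESeq2 called 10, 5, 19 and 18, none of them a member. Groups did not overlap for 1 of 10 members tested over all nuclei, where 10.9% of genes did so, for 1 of 7 in macrophage-like (11.7%), 1 of 10 in tumor-like (12.5%) and 1 of 7 in T/NK-like nuclei (13.6%). Those values were scaled by TMM factors. Median log2 fold changes of the members were -0.13, -0.07, -0.18 and -0.14, beside -0.02, 0.003, -0.02 and -0.01 over all genes.

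Ltbp1 had the lowest unadjusted p of the members in macrophage-like and tumor-like nuclei and was higher in KO in both. Over all nuclei it was 399, 373 and 640 CPM in CO and 611, 966 and 676 CPM in KO, so that CO 3 lay above KO 1 (0.76 ± 0.31, edgeR adjusted p = 0.672). In tumor-like nuclei the log2 fold change was 0.74 ± 0.30 (edgeR adjusted p = 0.577) with CO 3 again inside the KO range. In macrophage-like nuclei it was 1.50 ± 0.48 (edgeR adjusted p = 0.774), with KO 1 at 72.5 CPM inside the CO range and KO 2 and KO 3 at 233 and 195 CPM above it. In T/NK-like nuclei it was 0.17 ± 0.39.

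Among the ligands, Tgfb3 over all nuclei was 10.7, 11.2 and 14.2 CPM in CO and 8.11, 7.63 and 8.33 CPM in KO, and in tumor-like nuclei 12.1, 14.1 and 13.8 CPM and 9.72, 8.82 and 10.4 CPM. The groups did not overlap in either set, but the changes of -0.52 ± 0.21 and -0.40 ± 0.19 were not called (edgeR adjusted p = 0.672 and 0.577). Tgfb1 in tumor-like nuclei changed by -0.47 ± 0.23, with CO values down to 43.6 CPM and KO values up to 42.7 CPM that overlapped once scaled by TMM factors. Inhba over all nuclei was 391, 448 and 252 CPM in CO and 192, 241 and 263 CPM in KO (-0.59 ± 0.27), and in tumor-like nuclei its change was -0.60 ± 0.26. In T/NK-like nuclei Inhba was 233, 334 and 236 CPM in CO and 109, 113 and 230 CPM in KO, which do not overlap (-0.76 ± 0.32, edgeR adjusted p = 0.744). Tumor markers in the same T/NK-like nuclei stood at 8519, 8695 and 13900 CPM in CO and 5246, 12950 and 13430 CPM in KO, and their part in this difference was not tested.

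None of the receptors, nor Smad7, was called. In macrophage-like nuclei Tgfbr2 did not overlap between groups (CO from 414 to 455 CPM, KO from 282 to 387 CPM, -0.33 ± 0.21), Tgfbr1 was -0.07 ± 0.31 and Tgfbr3 0.74 ± 0.57, and Smad7 was -0.84 ± 0.31 (edgeR adjusted p = 0.774), with KO 1 at 119 CPM inside the CO range. In tumor-like nuclei Tgfbr1, Tgfbr2, Tgfbr3 and Smad7 changed by 0.11 ± 0.17, -0.17 ± 0.18, -0.15 ± 0.38 and -0.19 ± 0.21. Nox4 changed by -0.20 ± 0.43 in tumor-like nuclei. Tgfb2, Tgfb3 and Nox4 were too rare to be tested in macrophage-like and T/NK-like nuclei.

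Library KO 1 decided the calls in macrophage-like nuclei. Without it 1989 of 9996 genes tested were called there, among them Tgfb1 (-0.64), Tgfbr3 (1.20), Inhba (0.66), Smad7 (-1.16) and Ltbp1 (1.90). In tumor-like nuclei 2298 of 12629 were called and in T/NK-like nuclei 34 of 8550, none of them a member. In macrophage-like nuclei Nox4 was called too (2.86), but it failed the count filter with all 6 libraries. It passed without KO 1 through KO 2 and KO 3, with 9 and 23 UMIs against 3, 1 and 2 in CO, so that nothing is read from this call. The other 2 KO libraries were also those in which macrophage-like nuclei carried most tumor markers, at 3195 CPM in KO 2 and 3305 CPM in KO 3 against 677.1 CPM in KO 1 and 645.2 to 1340 CPM in the CO libraries. Ltbp1, Tgfbr3, Inhba and Nox4, the members higher in KO 2 and KO 3, were among the 6 members lower in macrophage-like than in tumor-like nuclei. Tgfb2 and Tgfb3, also lower there, had no UMI in the macrophage-like nuclei of KO 2. The source of the tumor markers in macrophage-like nuclei and their part in these differences were not tested.

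**Figure D4:**
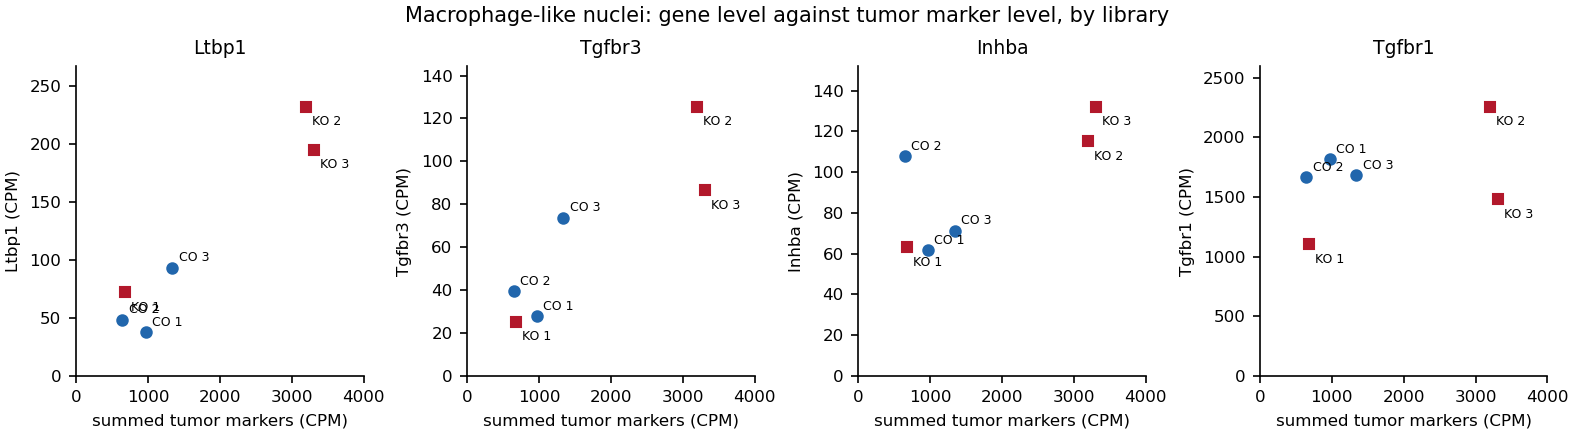
Level of Ltbp1, Tgfbr3, Inhba and Tgfbr1 in macrophage-like nuclei (vertical axis, CPM) against the summed level of 11 tumor markers in the same nuclei (horizontal axis, CPM), with 1 point per library. KO 2 and KO 3 lie at the right, at 3195 and 3305 CPM of tumor markers, and have the highest Ltbp1, Tgfbr3 and Inhba values, while Tgfbr1 is highest in KO 2 and lower in KO 3 than in any CO library.

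**Figure D5:**
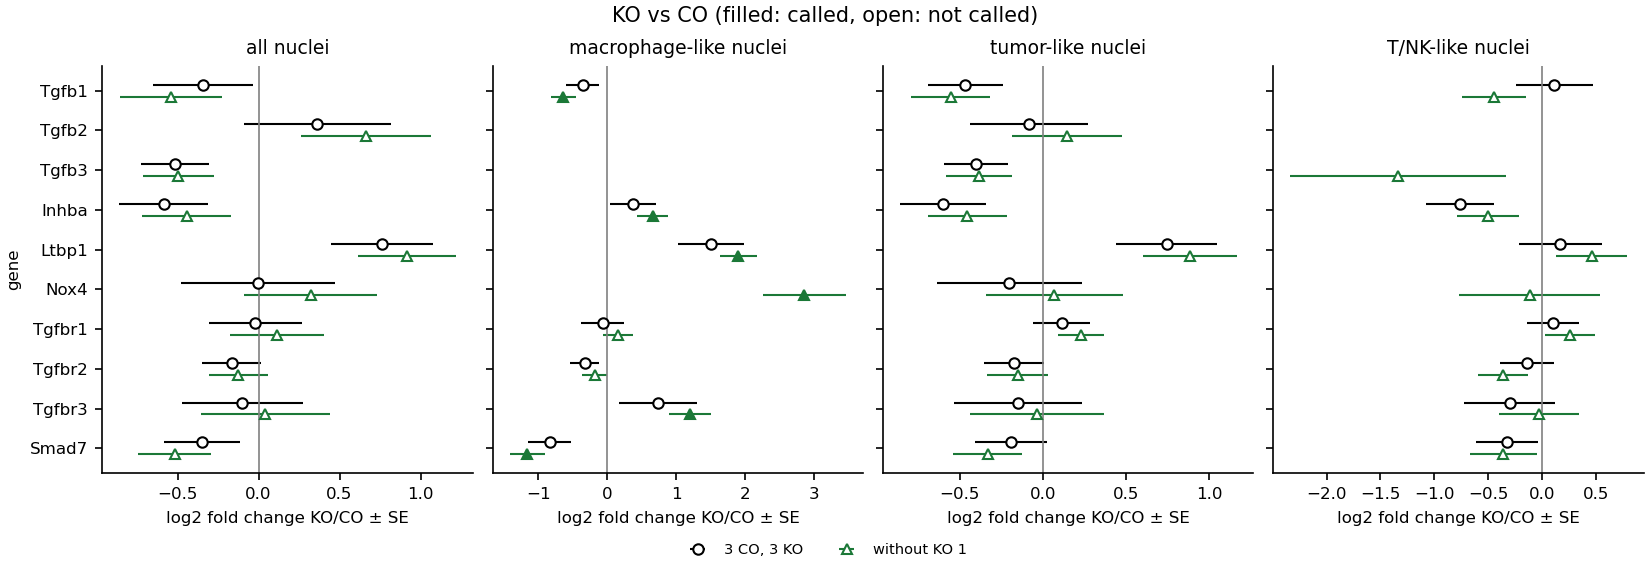
Log2 fold change of each member, KO over CO, with bars of 1 SE, in all nuclei and in 3 classes. Black circles are 3 against 3 libraries and green triangles the fits without KO 1, with filled symbols called; no black circle is filled, and 6 green triangles are filled, all in macrophage-like nuclei, where Nox4 was tested only without KO 1.

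A difference of the KO change between the macrophage-like and the tumor-like class was tested as an interaction, for which 0% of 12159 genes were called and 946 had an unadjusted p under 0.05. Inhba had the lowest p of the members, with a log2 change 1.01 ± 0.26 larger in macrophage-like nuclei (edgeR adjusted p = 0.496), beside changes of 0.37 there and -0.60 in tumor-like nuclei in the separate fits. Nox4 (2.46 ± 0.86), Smad7 (-0.60 ± 0.20) and Ltbp1 (0.75 ± 0.34) followed, all uncalled. Without KO 1 the interaction was called for 241 of 12302 genes tested, among them Tgfbr3 (1.36), Inhba (1.23), Ltbp1 (1.16) and Nox4 (3.06). With no count filter it was called for 165 of 17721, among them Nox4 (2.27). The Nox4 calls rest on the few macrophage-like UMIs given above, and nothing is read from them. The part of the tumor markers in the macrophage-like nuclei of KO 2 and KO 3 was not tested.

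None of the other pathway genes was called between KO and CO, with 61 tested over all nuclei, 41 in macrophage-like, 57 in tumor-like and 39 in T/NK-like nuclei. The lowest unadjusted p belonged to Inhbb (-0.83 ± 0.23), the BMP-responsive repressor gene Id3 (-0.93 ± 0.32) and the SMAD inhibitor gene Pmepa1 (-0.87 ± 0.31) over all nuclei, to Inhbb (-0.99 ± 0.24), Pmepa1 (-1.25 ± 0.33) and the carrier Ltbp4 (-0.55 ± 0.19) in tumor-like nuclei, to Thbs1, an activator of latent TGF-β (0.93 ± 0.35), Id3 (-0.99 ± 0.39) and the fibronectin gene Fn1 (0.71 ± 0.28) in macrophage-like nuclei, and to the cell cycle inhibitor gene Cdkn2b (-1.12 ± 0.34), Itgb3 (1.72 ± 0.62) and Id3 (-1.24 ± 0.45) in T/NK-like nuclei. In the interaction Fn1 (1.06 ± 0.21), Ltbp4 (1.11 ± 0.30) and the transducer Smad3 (-0.69 ± 0.19) came first among 55 tested, and 0 were called.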

How the data were processed

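The authors counted UMIs per gene and nucleus with Cell Ranger on GRCm38 (version 3.0.2 per their processing notes, 3.1.0 per the file headers). The deposited values are whole-number counts, and whether the correction for free RNA described in the study's methods is in them was not settled. The sources used here say neither whether introns counted nor which samples received extra washes.

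Nuclei with 100 to 7500 genes and under 20% mitochondrial counts were kept (18014 of 18865 barcodes), and the 500 with the highest Scrublet scores (0.8% per 1000 barcodes) were removed as doublets. Counts were scaled to 10000 per nucleus, 2000 variable genes without the members and pathway genes gave 30 components, and these were corrected for library by the Harmony method. Leiden clustering (leidenalg 0.10.2) used a resolution of 1. Names came from fixed marker lists, which include genes that led the study's own clusters.

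Counts were summed per library and class, and libraries were the replicates. Tests used edgeR 4.0.16 (quasi-likelihood F-test, TMM, filterByExpr) in R 4.3.3, with DESeq2 1.42.0 as an alternative. KO and CO were compared with no covariate, only in classes with at least 20 nuclei in every library, and classes with library as a block, over libraries with at least 10 nuclei of both classes. The SE of a log2 fold change was taken as its size over the root of F. In the endothelial-like comparison p-values followed a normal distribution of the ratio of log2 fold change to SE. The script was tested on simulated data. Intervals and limits for counts of 0 (3 counts) cover counting error only, and with 3 libraries a group the precision rests on the spread between libraries.

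All 10 members were named. Of 63 other pathway genes the text names, per comparison of classes, the 3 with the largest log2 fold change in each direction among those called and, per comparison of KO with CO, the 3 with the smallest unadjusted p. Ctgf and Cyr61 are listed under Ccn2 and Ccn1. The members and lists were chosen with earlier results of these data known. Alternatives covered normalization, filters, doublets, naming by marker counts, integration, the unnamed cluster, shared barcodes, nuclei with at most 3000 UMIs, a replicate block and leaving out each library. Replicate number was not used to pair libraries in the main tests. Correlations of deviations between CO and KO libraries of the same number ran from 0.27 to 0.51 for number 1. They ran from -0.29 to -0.19 for number 2 and from 0.25 to 0.39 for number 3. The highest correlation of each CO library with a KO library of another number ran from -0.21 to -0.17 for number 1. It ran from 0.28 to 0.35 for number 2 and from 0.28 to 0.48 for number 3. Median mitochondrial percentages of CO and KO were 6.76 and 6.22, 3.97 and 3.82, and 1.33 and 0.889 for numbers 1 to 3. Whether the number marks a batch was not tested.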

Additional observations from a re-analysis of the deposited data

How the results depend on the processing

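The naming of nuclei and library KO 1 moved the most values. Called genes between KO and CO numbered 10 over all nuclei, 5 in macrophage-like, 19 in tumor-like and 18 in T/NK-like nuclei with DESeq2, where edgeR called 0. In T/NK-like nuclei they numbered 66 with no count filter, 14 with a replicate block and 1 with no doublet removal. Leaving out each library gave 0 to 1989 calls in macrophage-like, 0 to 2298 in tumor-like and 0 to 34 in T/NK-like nuclei, the highest always without KO 1. Calls of the interaction numbered 165 with no count filter, 1 by marker-count classes and 0 to 241 over the fits without a library. T/NK-like against tumor-like calls rose from 1770 to 3777 by marker-count classes and 3960 among nuclei with at most 3000 UMIs, and endothelial-like calls from 1264 to 2298. The replicate block changed no other call. With it, genes with an unadjusted edgeR p under 0.05 rose from 661 to 1065 over all nuclei and from 586 to 668 in macrophage-like nuclei. They rose from 855 to 1646 in tumor-like and from 516 to 622 in T/NK-like nuclei.

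Of the called class differences, Tgfb2 in macrophage-like nuclei changed sign (1.11 by marker counts). Changes between KO and CO that turned sign, none of them called, were over all nuclei Tgfbr1 (0.014 with DESeq2, 0.011 with size factors), Tgfbr3 (0.029 with stricter nuclei) and Nox4 (0.038 with DESeq2, 0.035 with size factors, 0.0050 with no filter, 0.016 with the replicate block, 0.0011 with doublets, 0.0070 without shared barcodes). In tumor-like nuclei they were Tgfb2 (0.0069 by marker counts, 0.24 without integration), Tgfbr1 (-0.031, stricter nuclei), Tgfbr3 (0.26) and Nox4 (0.11), both without integration. In T/NK-like nuclei they were Tgfb1 (-0.39 stricter, -0.16 with doublets, -0.68 by marker counts), Tgfbr1 (-0.57, -0.64 and -0.31 in that order, -0.19 without integration) and Tgfbr3 (0.10 stricter, 0.75 with doublets). By marker counts the uncalled Smad7 difference of endothelial-like from tumor-like nuclei (-0.69) turned, as did endothelial-like Tgfbr1 among nuclei with at most 3000 UMIs (-0.60) and Tgfb1 in the interaction with no filter (-0.029). The causes were not tested.

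Over the fits without a library, KO against CO ranged over all nuclei from -0.10 to 0.71 for Tgfb2, -0.36 to 0.15 for Tgfbr1, -0.40 to 0.32 for Tgfbr3 and -0.25 to 0.56 for Nox4. It ranged from -0.41 to 0.15 for Tgfbr1 in macrophage-like nuclei, and in tumor-like nuclei from -0.28 to 0.20 for Tgfb2, -0.41 to 0.34 for Tgfbr3 and -0.64 to 0.29 for Nox4. In T/NK-like nuclei it ranged from -0.45 to 0.43 for Tgfb1, -0.36 to 0.022 for Tgfbr2, -0.66 to 0.20 for Tgfbr3 and -0.11 to 0.69 for Ltbp1. T/NK-like against tumor-like Tgfb3 ranged from -0.85 to 0.072 and the interaction of Tgfbr2 from -0.25 to 0.064.

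Of the members' values under alternatives, 442 of KO against CO kept direction and side of the threshold, 45 changed sign and 5 became called, and of the class comparisons 312 kept both, 20 lost and 2 gained a call and 5 changed sign. Comparisons of fibroblast-like nuclei could not be run, with 10 nuclei in 3 libraries only. Leaving out each library was added for shares of UMIs and mean levels after seeing the data. Endothelial-like and fibroblast-like values rest on 185 and 109 nuclei, which limits what is detectable there.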

Other observations

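Smaller clusters gave pooled levels with too few nuclei for a comparison. Dendritic-like nuclei (154) held Tgfbr1 at 272.9 CPM and Smad7 at 154.4 CPM, plasmacytoid dendritic-like nuclei (54) held Tgfb1 at 186.2 CPM and Tgfbr1 at 438.1 CPM, and skeletal muscle-like nuclei (59) held Tgfb2 at 34.1 CPM. The 66 adipocyte-like nuclei, all with barcodes shared by several libraries, held Tgfbr3 at 483 CPM and none of the 3 ligands. The unnamed clusters together held Tgfbr3 at 384.2 CPM, Inhba at 331 CPM and Ltbp1 at 694.3 CPM.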
